A study of Mus musculus with 6 samples.

Results

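The genes described here are 37 mouse genes of cholesterol and fatty acid synthesis, given as a list of symbols: 18 enzymes that build cholesterol from acetyl units, 5 genes that control the pathway, 5 genes of sterol transport and 9 enzymes of fatty acid synthesis. Each symbol matched exactly 1 of the 53700 genes in the deposited expression table. RNA-seq was performed on SL4, a luciferase-expressing mouse colorectal cancer (CRC) cell line, with 3 libraries from cells without SEMA6A overexpression (pLV-Control) and 3 from cells stably carrying a lentivirus that overexpresses the semaphorin SEMA6A (pLV-SEMA6A). All 6 libraries came from SL4 cells in culture, and no other treatment is given in the labels. Each group is a single line as far as the sources used here say, so an effect of SEMA6A and a difference between the lines cannot be told apart. The labels do not say whether the control cells carry an empty lentiviral vector, so an effect of the vector cannot be told apart either. The labels do not say whether the libraries of a group came from separate cultures, and the p-values then measure only the spread between these libraries, which may be technical.

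Cholesterol is made in a long chain of enzymes. The mevalonate steps turn acetyl-CoA into farnesyl units, squalene synthase joins them, and the later steps close and trim the sterol rings. Fatty acid synthesis starts from the same acetyl-CoA, which is made from citrate, and continues with elongases and desaturases. Many genes of both pathways are targets of the SREBP transcription factors, which are held in the endoplasmic reticulum by SCAP and the INSIG proteins when sterols are plentiful and are released by proteolysis when sterols fall.

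A known DNA element of SREBP is the sterol regulatory element, so the promoters of the listed genes were searched for it and for the other motifs named below. The windows were the 250 bases before each RefSeq transcription start on GRCm38.p6, and 28 of the 37 genes had an entry. A few windows are printed here 5′ to 3′ on the strand of the gene, with motif matches in capitals. Printed are the window of Hmgcs1, the listed gene with a match to the sterol element as searched below, and some others. These others are the windows of the DEGs (defined with the counts below) that have exactly 1 listed start. They lie at chr13:119690101-119690350 on the plus strand for Hmgcs1, chr5:114444019-114444268 on the plus strand for Mvk, chr5:4104698-4104947 on the minus strand for Cyp51, chr17:12960726-12960975 on the minus strand for Acat2 and chr19:10101504-10101753 on the minus strand for Fads2.
Hmgcs1: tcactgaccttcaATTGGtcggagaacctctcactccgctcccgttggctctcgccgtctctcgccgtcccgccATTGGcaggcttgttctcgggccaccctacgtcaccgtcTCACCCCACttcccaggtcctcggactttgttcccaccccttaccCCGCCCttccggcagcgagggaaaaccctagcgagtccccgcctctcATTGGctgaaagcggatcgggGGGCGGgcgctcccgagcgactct
Mvk: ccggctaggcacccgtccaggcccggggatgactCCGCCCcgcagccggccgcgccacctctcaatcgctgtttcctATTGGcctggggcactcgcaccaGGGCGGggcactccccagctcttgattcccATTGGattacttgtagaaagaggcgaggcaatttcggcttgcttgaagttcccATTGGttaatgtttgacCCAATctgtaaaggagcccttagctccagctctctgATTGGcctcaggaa
Cyp51: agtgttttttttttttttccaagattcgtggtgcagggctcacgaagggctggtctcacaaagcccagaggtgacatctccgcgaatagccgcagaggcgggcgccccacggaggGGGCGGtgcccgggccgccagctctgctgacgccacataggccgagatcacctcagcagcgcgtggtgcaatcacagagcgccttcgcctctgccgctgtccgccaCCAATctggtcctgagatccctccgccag
Acat2: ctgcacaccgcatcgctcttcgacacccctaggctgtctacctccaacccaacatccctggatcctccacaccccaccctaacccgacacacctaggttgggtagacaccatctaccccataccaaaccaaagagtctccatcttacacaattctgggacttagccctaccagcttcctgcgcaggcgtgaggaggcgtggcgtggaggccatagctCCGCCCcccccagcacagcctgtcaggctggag
Fads2: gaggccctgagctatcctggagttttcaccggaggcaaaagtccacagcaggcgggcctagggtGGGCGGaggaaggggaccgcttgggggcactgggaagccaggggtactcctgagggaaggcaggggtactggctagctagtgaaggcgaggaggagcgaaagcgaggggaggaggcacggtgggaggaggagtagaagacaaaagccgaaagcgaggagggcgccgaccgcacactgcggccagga

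The sterol element was searched on both strands in its looser form TCACNCCAC and in the strict form SRE-1, which reads C for the N and has an A in front, so that every strict match also holds the looser one. The looser form was in 1 of the 28 genes, Hmgcs1, where its first base lies 137 bases before the start, and in 1.225% of all 27025 genes with a window. SRE-1 was in 0 of the 28 and in 0.081% of all genes. Only these exact letters were searched, so other variants were not counted. A window without a match is not shown to lack a sterol element. The CCAAT box, searched as CCAAT and its reverse ATTGG, was in 20 of the 28 (71.43%) and in 37.495% of all genes. Mvk had 5 such boxes in its window and Hmgcs1 had 3. The GC box GGGCGG, with its reverse CCGCCC, was in 22 of the 28 (78.57%) against 35.356% of all genes, and the E-box CACGTG in 7 against 6.86% of all genes. Among listed genes with a window, CCAAT boxes were in 8 of the 13 that were higher in pLV-SEMA6A and in 12 of the 13 that did not pass the test. GC boxes were in 9 and 12 of these, and E-boxes in 1 and 5. The 27025 genes with a window are more than the 12510 tested here, so they include genes that were not tested. These matches describe the letters of 250 bases and are no measurement of binding.

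Levels were deposited as TPM, a unit that corrects for transcript length and sets each library to a common total, so they can be set beside each other between genes, but the number of reads behind a value is unknown. Library sums ranged from 977400 to 986444 TPM. Sema6a itself was listed at 0 in every pLV-Control library and reached 98.7, 118 and 112 TPM with the overexpression. Pearson correlations of log2(TPM + 1) ran from 0.9666 to 0.9785 within groups and from 0.9408 to 0.9566 between groups. The 10 colon epithelial markers checked were all below 1 TPM in every library, with Epcam, Cdx1 and Cdx2 at 0, so the colorectal epithelial identity that the labels imply is not visible in them. Markers of leukocytes summed to at most 2.58 TPM, of endothelium to at most 0.22 TPM and of hepatocytes to at most 1.7 TPM. The 8 fibroblast markers summed to between 125 and 141 TPM in pLV-Control and between 183 and 189 TPM in pLV-SEMA6A, a sum carried by Col3a1, a fibrillar collagen. Of the 5 fibroblast markers tested, Col3a1 and Col1a1 were higher, Pdgfra and Pdgfrb were lower (log2 fold changes −0.63 and −0.59) and the median was −0.08, and their part in the results below was not tested. In bulk RNA, fewer cells of a kind and less RNA per cell cannot be told apart.

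Of the 37 genes, 34 had a mean of at least 1 TPM and were tested with limma on log2(TPM + 1), a scale that understates the change of low genes. A gene passed at a Benjamini-Hochberg adjusted p under 0.05 over all 12510 tested genes, and a DEG also had an absolute log2 fold change over 0.5. In pLV-SEMA6A 19 of the 34 were higher (55.9%) and 1 was lower, while 14 did not pass. Of all tested genes 47.6% passed, 19.5% as higher and 28.2% as lower. The DEGs were Acat2, Mvk, Pmvk, Fdps, Cyp51, Scd1, Scd2 and Fads2, which were higher (23.5% of the 34, against 5.12% of all tested genes), and Npc1, which was lower (10.8% of all tested genes were lower DEGs). Without pLV-Control replicate 1, Acat2 (0.472), Mvk (0.43) and Cyp51 (0.455) fell under the DEG minimum and Sqle (0.502) passed it, which left 6 higher DEGs. The median log2 fold change was 0.30 over the 34 and −0.06 over all tested genes. In 19 of the 34 (55.9%) every pLV-SEMA6A library lay above every pLV-Control library, against 23.8% of all tested genes. These are the same 19 genes that passed as higher, and both counts rest on the same libraries. Every pLV-SEMA6A library lay below every pLV-Control library for Npc1 and Hmgcs1 (5.88%), against 34.7% of all tested genes. With 3 libraries a group, the smallest p an exact permutation test allows is 0.1. Library values below are given in the order of their replicate numbers, pLV-Control first and pLV-SEMA6A after the word against.

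Scaling mattered for how many genes are called. Centring each library on its median raised every log2 fold change by 0.09, and the share of higher genes among the DEGs moved from 32.2% to 51.0%. With centring, 23 of the 34 listed genes were higher, 1 was lower and 10 did not pass, while 26.9% of all tested genes were higher and 19.8% lower. There were then 12 higher DEGs in the list, with Fdft1, Sqle, Fasn and Elovl6 added, and Npc1 was the lower one, while 8.01% of all tested genes were higher and 7.68% lower DEGs.

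**Figure D1:**
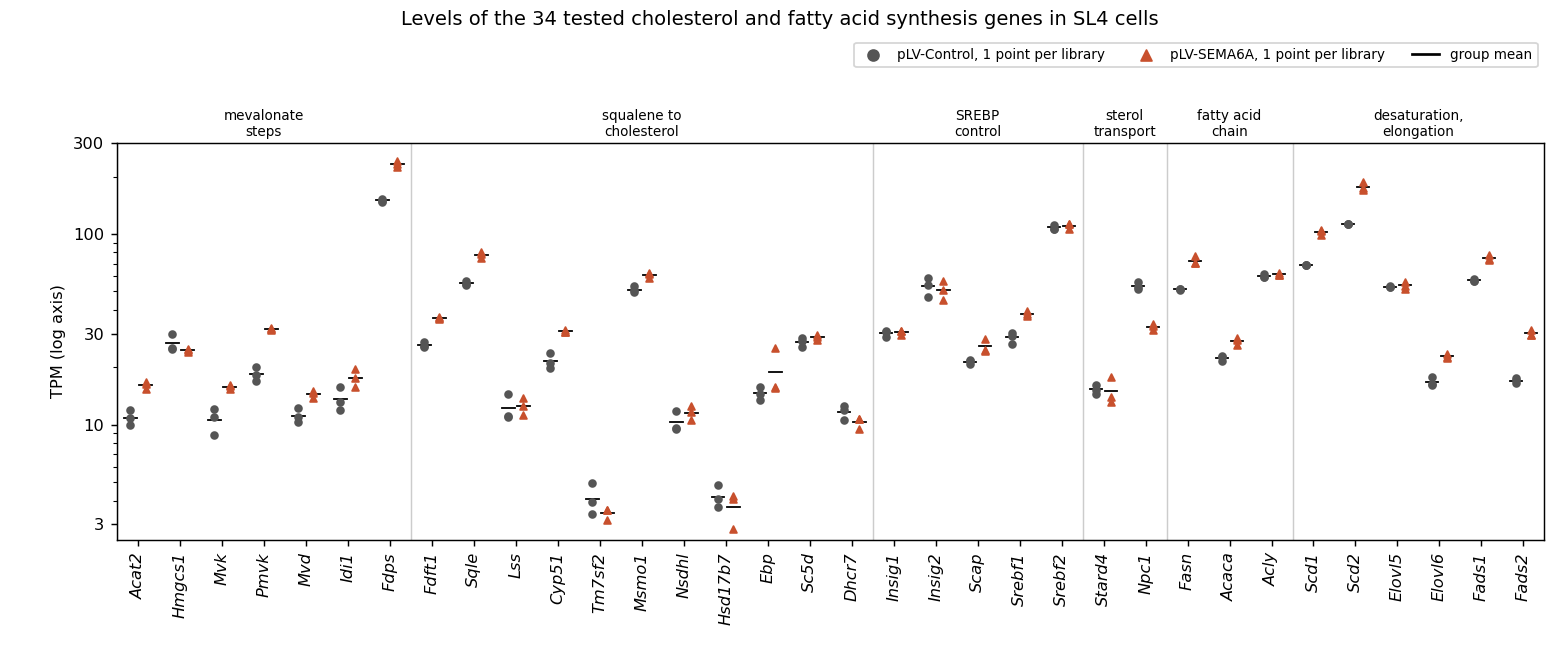
Levels of the 34 tested genes by role, in TPM on a log axis, with 1 point for each of 3 pLV-Control (circles) and 3 pLV-SEMA6A (triangles) libraries and a line at each group mean. The groups separate upwards in genes such as Pmvk, Fdps, Scd1, Scd2 and Fads2 and downwards in Npc1, and they overlap in Lss, Insig1 and Elovl5.

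The mevalonate steps rose nearly throughout: 6 of 7 enzymes passed as higher, 4 of them as DEGs, with a median log2 fold change of 0.53. The shares over all tested genes were 19.5% higher and 5.12% higher DEGs. Fdps, farnesyl diphosphate synthase, was the most abundant enzyme of the cholesterol chain, at 148, 153 and 149.7 TPM against 232, 224 and 241 TPM. The groups lay far apart beside their spread, with means of 150.2 ± 2.84 and 232.6 ± 8.36 TPM (SD, n = 3 each). The difference was 0.63 on the log2 scale (standard error 0.03, adjusted p = 3.22e-05 by limma), and 27.9% of the 31-base stretches of its transcripts occur in other genes, mainly Gm43738, which had means of 1.74 and 2.12 TPM.
Pmvk, phosphomevalonate kinase, had the largest difference of the cholesterol enzymes. It was at 18.2, 16.9 and 20.01 TPM against 32.3, 31.55 and 31.6 TPM, a mean ratio of 1.73. The pLV-SEMA6A libraries were nearly level with each other and all above pLV-Control (log2 fold change 0.76, standard error 0.06, adjusted p = 0.000186 by limma).
Mvk, mevalonate kinase, the step before it, was at 8.82, 11.0 and 12.1 TPM against 15.4, 16.2 and 16.01 TPM. The control libraries were the more scattered, and the groups did not overlap (log2 fold change 0.55, standard error 0.11, adjusted p = 0.00645 by limma). Acat2, the cytosolic thiolase that joins acetyl units at the start of the chain, was at 9.94, 11.9 and 10.8 TPM against 16.3, 16.8 and 15.4 TPM. Its log2 fold change was 0.53 (adjusted p = 0.00173 by limma), with 43.75% of its 31-base stretches shared with Acat3, which was at 0.28 and 0.38 TPM on average.
Mvd, mevalonate diphosphate decarboxylase, rose from 11.1 to 14.4 TPM on average (log2 fold change 0.35, adjusted p = 0.00909 by limma), below the DEG minimum. Idi1, the isomerase of isopentenyl diphosphate, was at 13.1, 12.01 and 15.7 TPM against 17.6, 15.75 and 19.5 TPM. Its groups all but touched, its adjusted p of 0.0433 by limma was close to the threshold, and 27.1% of its 31-base stretches are shared. The call was lost without pLV-Control replicate 1 or 2 or pLV-SEMA6A replicate 1 or 3, with adjusted p of 0.11, 0.119, 0.0975 and 0.122 by limma.
Hmgcs1, HMG-CoA synthase, was the exception among the mevalonate steps and the gene with the sterol element match printed above. It was at 25.1, 29.8 and 25.2 TPM against 24.2, 24.8 and 24.65 TPM. The pLV-SEMA6A libraries lay just under the lowest control library, and the log2 fold change of −0.11 (95% interval −0.29 to 0.07, adjusted p = 0.254 by limma) did not pass.

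From squalene onwards the enzymes were mixed: 4 of 11 were higher (36.4%, against 19.5% of all tested genes), 0 were lower and 7 did not pass. The median log2 fold change was 0.15. Sqle, squalene epoxidase, was at 56.8, 54.9 and 54.3 TPM against 78.2, 80.1 and 74.99 TPM. The gap between the groups was several times the spread within them (log2 fold change 0.48, standard error 0.04, adjusted p = 0.000132 by limma). Fdft1, squalene synthase, was at 25.8, 25.5 and 27.2 TPM against 36.5, 35.9 and 36.1 TPM, without overlap. Its log2 fold change was 0.45 (adjusted p = 0.000252 by limma), and 31.9% of its 31-base stretches are shared, in part with Ctsb on the opposite strand, which was lower in pLV-SEMA6A (520 and 449 TPM, log2 fold change −0.21).
Cyp51, lanosterol demethylase, was the DEG of this stretch as fitted to all libraries, at 19.9, 20.95 and 23.7 TPM against 31.4, 30.7 and 30.6 TPM (log2 fold change 0.51, standard error 0.07, adjusted p = 0.0013 by limma). All pLV-SEMA6A libraries were within 1 TPM of each other and above the controls. Its log2 fold change fell under the DEG minimum without pLV-Control replicate 1 (0.455) or 2 (0.49) or pLV-SEMA6A replicate 1 (0.496), and that of Sqle rose over it without pLV-Control replicate 1 (0.502) or pLV-SEMA6A replicate 3 (0.509). Msmo1, the methylsterol oxidase that follows, rose from 51.0 to 61.0 TPM on average (log2 fold change 0.25, adjusted p = 0.00379 by limma).
The remaining enzymes did not pass with TPM as deposited. Lss, which closes the sterol rings of lanosterol, had a log2 fold change of 0.04 (95% interval −0.26 to 0.34) and overlapping libraries. Nsdhl, a sterol dehydrogenase, had 0.15 (−0.10 to 0.40), and Sc5d, a late desaturase, had 0.09 (−0.04 to 0.21), which became 0.18 after centring and then passed (adjusted p = 0.0368 by limma). Hsd17b7, a sterol ketone reductase, had −0.15 (−0.52 to 0.23), Tm7sf2, a sterol reductase, −0.19 (−0.51 to 0.14), and Dhcr7, the reductase of the last step, −0.17 (−0.37 to 0.03). These intervals leave room for changes in either direction, except that a rise as large as that of Sqle lies outside the intervals of all but Ebp.
Ebp, a sterol isomerase, had the widest interval of the list, −0.12 to 0.76 around 0.32. It was at 15.8, 13.5 and 14.5 TPM against 15.85, 25.2 and 15.6 TPM. Replicate 2 of pLV-SEMA6A stood apart, and the log2 fold change was 0.10 without it.
Summed over the 18 cholesterol enzymes, the level was 474, 480.1 and 485 TPM against 647, 643 and 655 TPM, a ratio of 1.35, to which the mevalonate steps (ratio 1.46) and the later steps (ratio 1.24) contributed unequally. Fdps alone made up most of the mevalonate sum, which averaged 241.5 and 353 TPM.

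**Figure D2:**
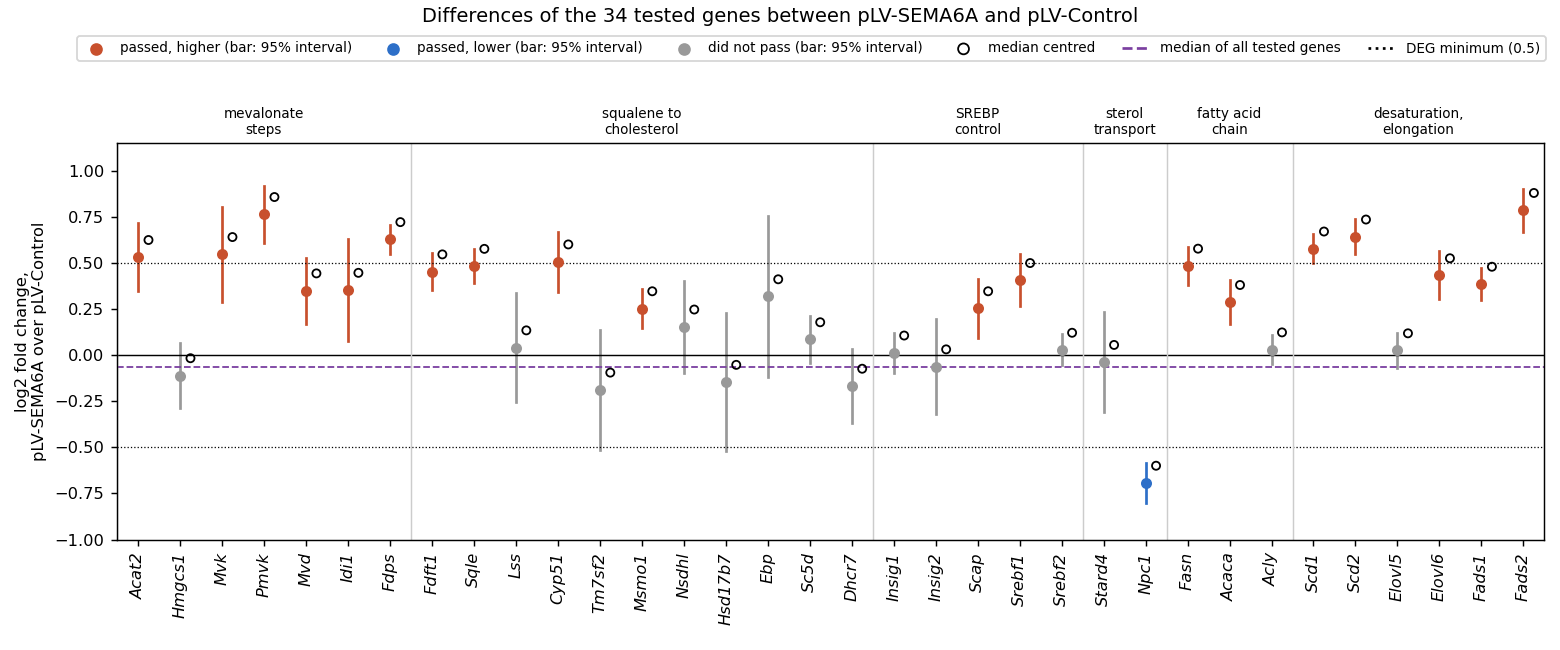
Log2 fold changes of the 34 tested genes on the log2(TPM + 1) scale (pLV-SEMA6A over pLV-Control, 3 libraries each), coloured by whether the gene passed, with 95% intervals by limma as bars, open circles for the values after median centring, a dashed line at the median of all tested genes (−0.06) and dotted lines at the DEG minimum. Pmvk (0.76) and Fads2 (0.79) lie highest and Npc1 (−0.69) lowest, and 7 of the 11 enzymes from squalene onwards have intervals across 0.

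Of the 5 genes that control SREBP, 2 were higher, 3 did not pass and 0 were DEGs, with a median log2 fold change of 0.03. Srebf1, which encodes the SREBP form tied mainly to fatty acid synthesis, was at 29.2, 26.4 and 30.4 TPM against 38.1, 39.3 and 37.3 TPM. It rose without overlap (log2 fold change 0.41, standard error 0.06, adjusted p = 0.00184 by limma) and stayed under the DEG minimum. Srebf2, the form tied mainly to cholesterol synthesis, was the more abundant form in TPM, at 106, 107 and 112 TPM against 112, 112 and 107 TPM. Its libraries overlapped, and the log2 fold change of 0.03 had a 95% interval of −0.06 to 0.11.
Scap, the escort protein of SREBP, rose from 21.4 to 25.7 TPM on average (log2 fold change 0.25, adjusted p = 0.0201 by limma), and its adjusted p was 0.0639 without replicate 2 of pLV-Control. Insig1, an SREBP target that retains SCAP when sterols are plentiful, was at 30.7, 29.0 and 31.2 TPM against 30.9, 31.1 and 29.6 TPM. The libraries were interleaved, and the interval of its log2 fold change (−0.10 to 0.12) leaves out a rise like that of Srebf1. Insig2, its relative, was at 46.7 to 58.7 TPM in pLV-Control and at 45.1 to 56.6 TPM in pLV-SEMA6A (log2 fold change −0.06, 95% interval −0.32 to 0.20). Centring turned the sign of Insig2 to 0.03 and let Srebf2 pass at 0.12.

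Of the 5 sterol transport genes 2 were tested and Npc1 passed, and it moved opposite to the enzymes. Npc1, the membrane protein through which cholesterol leaves the lysosome, was at 51.6, 55.85 and 53.0 TPM against 33.7, 32.9 and 31.5 TPM. Its mean went from 53.5 ± 2.18 TPM to 32.7 ± 1.14 TPM (SD, n = 3 each), and it fell by 0.69 on the log2 scale (standard error 0.05, adjusted p = 6.92e-05 by limma). Stard4, a soluble sterol carrier, was at 15.3, 14.6 and 16.2 TPM against 17.9, 13.2 and 14.01 TPM, with overlap (log2 fold change −0.04, 95% interval −0.31 to 0.23, and 0.05 after centring).
The other members of this role were below the filter. Abca1, which exports cholesterol to lipoproteins, was at 0.48, 0.70 and 0.40 TPM against 1.23, 1.07 and 0.65 TPM, which overlap. Abcg1, another exporter, was listed at 0 in all 6 libraries. Ch25h, which makes an oxysterol, was at most 0.10 TPM in pLV-Control and was listed at 0 in pLV-SEMA6A.

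Of the 9 fatty acid enzymes, 7 were higher (77.8%, against 19.5% of all tested genes), 0 were lower and 2 did not pass. After centring all 9 were higher, against 26.9% of all tested genes, with Acly and Elovl5 added at 0.12. Fasn, the fatty acid synthase, was at 51.3, 51.5 and 51.15 TPM against 70.1, 70.15 and 76.5 TPM. The control libraries were nearly identical and the others well above them (log2 fold change 0.48, standard error 0.04, adjusted p = 0.000228 by limma). Acaca, acetyl-CoA carboxylase, which makes the malonyl units that Fasn uses, was at 21.5, 22.6 and 22.9 TPM against 27.85, 28.4 and 26.1 TPM, without overlap. Its log2 fold change was 0.29 (adjusted p = 0.00399 by limma), with 33.5% of its 31-base stretches shared, mainly with Gm5182 (at 0.90 and 0.36 TPM on average).
Acly, which supplies acetyl-CoA from citrate to both pathways, was at 59.3, 61.9 and 59.7 TPM against 61.1, 62.7 and 60.9 TPM. The libraries overlapped, and the interval of its log2 fold change, −0.05 to 0.11, excludes a rise as large as that of Acaca. With centring it was 0.12 and passed.
The desaturases and elongases had 5 of 6 genes higher and a median log2 fold change of 0.50, close to that of the mevalonate steps. Fads2, the delta-6 desaturase of polyunsaturated fatty acids, had the largest log2 fold change of the list, 0.79 (standard error 0.05, adjusted p = 5.24e-05 by limma). It was at 16.45, 17.1 and 17.6 TPM against 29.6, 29.4 and 31.3 TPM, a mean ratio of 1.77, and the groups were far apart. Fads1, the delta-5 desaturase, was at 56.5, 58.3 and 56.7 TPM against 74.2, 77.85 and 73.0 TPM, with no overlap and a log2 fold change of 0.39 (adjusted p = 0.000295 by limma).
Scd2 and Scd1 are stearoyl-CoA desaturases, which make monounsaturated fatty acids. Scd2 was at 113.2, 112.7 and 113.35 TPM against 170.2, 187 and 174 TPM (log2 fold change 0.64, standard error 0.04, adjusted p = 5.25e-05 by limma). Scd1 was at 68.5, 68.6 and 68.85 TPM against 105.5, 104 and 99.2 TPM (log2 fold change 0.58, standard error 0.03, adjusted p = 4.14e-05 by limma). In both, the spread lay almost wholly within pLV-SEMA6A and the groups did not overlap.
Elovl6, which lengthens saturated chains, rose from 16.7 to 22.9 TPM on average (log2 fold change 0.43, adjusted p = 0.000998 by limma). Elovl5, which lengthens polyunsaturated chains between the steps of Fads2 and Fads1, was at 52.5, 53.2 and 52.8 TPM against 53.4, 56.3 and 51.8 TPM. Its libraries overlapped, with a log2 fold change of 0.03 (95% interval −0.07 to 0.12), and it passed only after centring (0.12). Summed over the 9 enzymes, the level was 455, 462 and 461 TPM against 614, 639.65 and 615 TPM, a ratio of 1.36. Adipocyte markers were near 0 beside this, with Cidec, Lep and Adig at 0 in all libraries and Adipoq and Plin1 at most 0.11 TPM, and their sum, almost all Fabp4, was 0.46 to 1.01 TPM in pLV-Control and 1.01 to 2.21 TPM in pLV-SEMA6A.

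**Figure D3:**
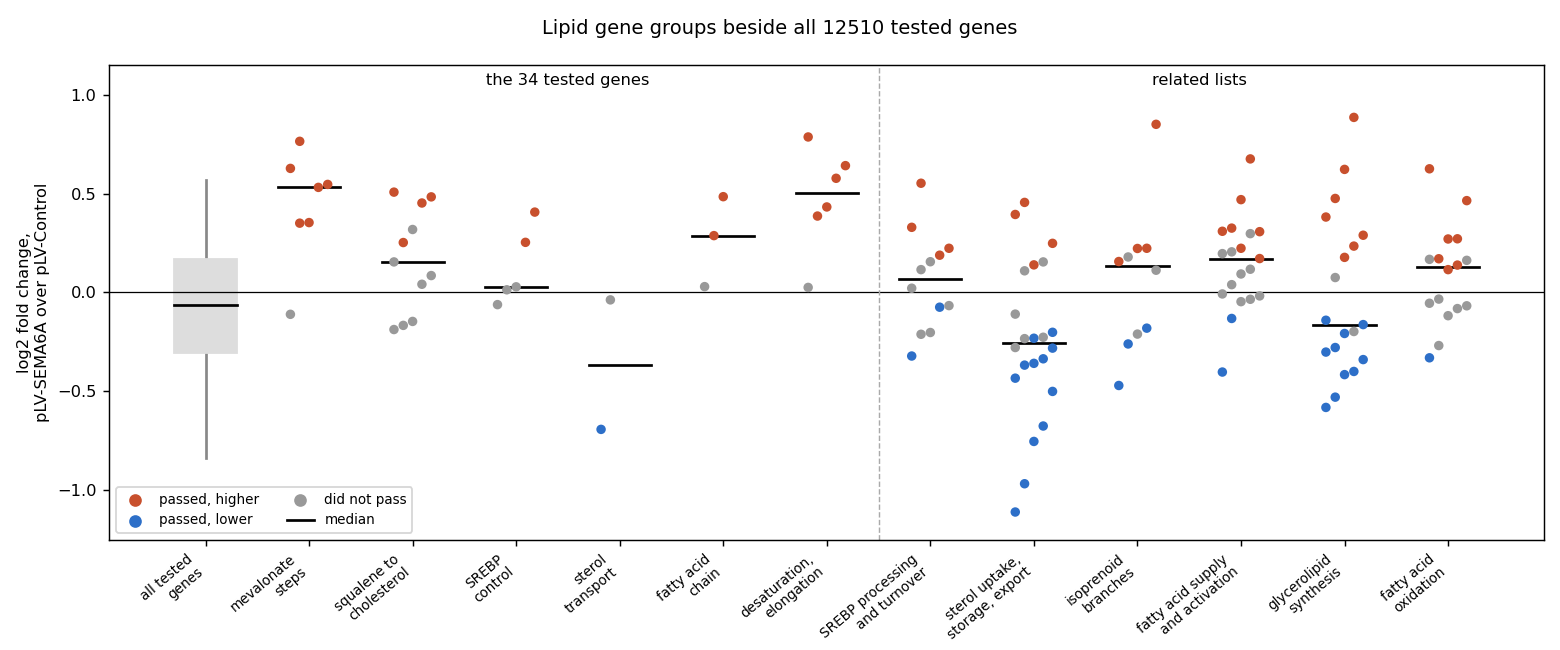
Log2 fold changes on the log2(TPM + 1) scale of the tested genes by role and of 6 related lists, with 1 point per gene coloured by whether it passed and a line at each median. The grey box and line on the left span the 25th to 75th and the 5th to 95th percentile of all tested genes. The mevalonate (0.53) and desaturation and elongation (0.50) medians lie highest, and the list of sterol uptake, storage and export (−0.26) is the lowest of the related lists.

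Related genes from 6 hand-made lists were read in the same fit. Among 12 genes that process or degrade SREBP and its partners, 4 were higher (33.3%) and 2 lower (16.7%), with a median log2 fold change of 0.07. Of all tested genes 19.5% were higher and 28.2% lower. After centring 6 of the 12 were higher and 1 lower, against 26.9% and 19.8% of all tested genes. Vcp, the ATPase that extracts proteins from the endoplasmic reticulum, was the DEG of this list (242 and 356 TPM on average, log2 fold change 0.55, adjusted p = 6.09e-06 by limma). Of its 31-base stretches, 46.3% occur elsewhere, mainly in Vcp-rs, which was at most 0.18 TPM. Among 10 genes of the isoprenoid branches that leave the mevalonate chain, 4 were higher and 3 lower. Pdss1, which makes the side chain of ubiquinone, rose from 10.5 to 19.7 TPM (log2 fold change 0.85, adjusted p = 0.000251 by limma).
Of 22 tested genes of sterol uptake, storage and export, 12 were lower (54.5%, against 28.2% of all tested genes) and 4 higher, with a median log2 fold change of −0.26. After centring 10 were lower and 5 higher, against 19.8% and 26.9% of all tested genes, with a median of −0.16. Npc2, which hands cholesterol to NPC1 inside the lysosome, was at 175, 176 and 169 TPM against 80.5, 78.4 and 79.97 TPM. It fell by 1.11 on the log2 scale (standard error 0.03, adjusted p = 1.97e-06 by limma), the same direction as Npc1 and with a larger difference. Gramd1a, a carrier of cholesterol from the plasma membrane to the endoplasmic reticulum, was at 34.3, 38.3 and 35.2 TPM against 18.7, 17.7 and 17.2 TPM (log2 fold change −0.97, adjusted p = 4.75e-05 by limma).
Cyp27a1, a sterol hydroxylase, fell from 3.67 to 1.77 TPM (log2 fold change −0.75), and Abca7, a lipid transporter, from 10.1 to 5.94 TPM (log2 fold change −0.68). Lipa, the lysosomal acid lipase that frees cholesterol from its esters, is named here after its values were seen. It was at 13.65, 14.7 and 14.2 TPM against 8.76, 9.77 and 10.7 TPM, with a log2 fold change of −0.50 (adjusted p = 0.00273 by limma) that was −0.41 after centring and then no DEG.

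**Figure D4:**
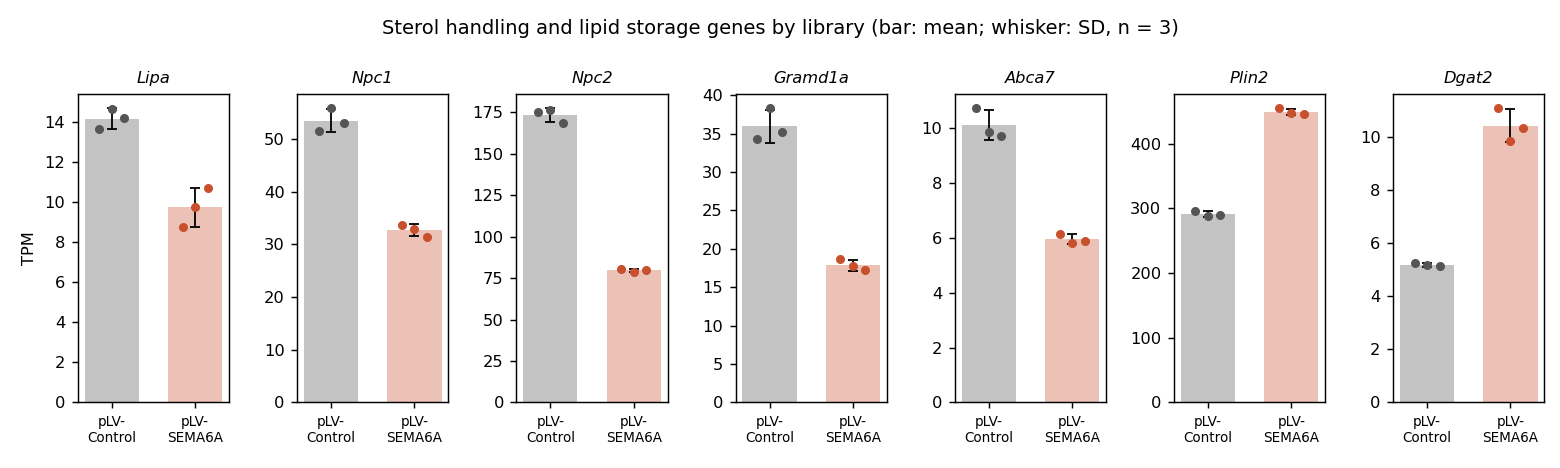
TPM by library of genes of lysosomal cholesterol release (Lipa, Npc1, Npc2), sterol handling (Gramd1a, Abca7) and lipid storage (Plin2, Dgat2), with bars at the group mean, whiskers of 1 SD (n = 3) and 1 point per library. The first 5 genes are lower in all pLV-SEMA6A libraries and Plin2 and Dgat2 are higher in all of them. All genes shown are DEGs, so a difference between the groups was given by the choice. Lipa, Npc2, Gramd1a and Abca7 are from the sterol uptake, storage and export list, in which 12 of 22 tested genes were lower and 4 higher. Plin2 and Dgat2 are the higher DEGs of the glycerolipid list, in which 7 of 19 genes were higher and 10 lower. The shares over all tested genes were 19.5% higher and 28.2% lower.

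Of 19 tested genes that supply or activate fatty acids, 7 were higher (36.8%, against 19.5% of all tested genes) and 2 lower, with a median log2 fold change of 0.17. After centring 12 were higher and 1 lower, against 26.9% and 19.8% of all tested genes. Acss2, which makes acetyl-CoA from acetate, was the DEG, at 2.75 and 4.98 TPM on average (log2 fold change 0.67, adjusted p = 0.00429 by limma). Of 16 tested genes of fatty acid oxidation, 7 were higher (43.8%) and 1 lower (median 0.13), against 19.5% and 28.2% of all tested genes. After centring 8 were higher and 0 lower, against 26.9% and 19.8%. Hadha, a subunit of the mitochondrial trifunctional protein, rose from 49.0 to 76.0 TPM (log2 fold change 0.63, adjusted p = 9.41e-05 by limma).
Of 19 genes of glycerolipid synthesis and storage, 7 were higher (36.8%) and 10 lower (52.6%), with a median of −0.16. The shares over all tested genes were 19.5% higher and 28.2% lower. After centring 7 of the 19 were higher and 6 lower, with a median of −0.07, against 26.9% and 19.8% of all tested genes. Plin2, a coat protein of lipid droplets, was at 297, 289 and 289 TPM against 455, 448 and 445 TPM (log2 fold change 0.62, standard error 0.02, adjusted p = 5.7e-06 by limma). Dgat2, which makes triglyceride, was at 5.26, 5.17 and 5.14 TPM against 11.1, 9.85 and 10.4 TPM (log2 fold change 0.88, adjusted p = 0.000139 by limma). The controls of both genes were tight and no library overlapped. Lpin1, a phosphatidate phosphatase, fell from 5.01 to 3.18 TPM (log2 fold change −0.53), and Lipe, hormone-sensitive lipase, from 4.18 to 2.45 TPM (log2 fold change −0.58), and after centring neither was a DEG.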

How the data were processed

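Poly-A RNA of 6 SL4 libraries was sequenced, and the authors deposited TPM per gene and library. The submitters' processing notes name HISAT, Bowtie2, RSEM and build mm39, without versions or roles. Columns left unused were 2 group means. TPM holds no sequencing depth, and intervals or floors for counts were not computed. Whether reads were assigned by strand is not given in the sources used here.
Group differences on log2(TPM + 1) came from limma 3.58.1 (R 4.3.3), using its trend option and no covariate. Genes entered with a mean TPM of 1 or more, which left 12510. The Benjamini-Hochberg method adjusted the p-values over all of these. DEGs had an adjusted p below 0.05 and a log2 fold change beyond 0.5 either way, a criterion the supplement gives for its limma-based enrichment analysis and not for the RNA-seq. The count model named in the paper was not used because it needs read counts, which are not used here. The steps were also run on simulated data, with outcomes not given here. The simulated noise was independent between libraries, so this run cannot address libraries that share a culture.
The listed genes, roles, related lists and markers were chosen with earlier results of these data known, and no test was run over a list. Named by rule were all listed genes, the DEGs of each related list (the 4 largest where there were more) and Sema6a. Other genes are named where they bear on these. Shared 31-base stretches and exon overlaps were counted over GENCODE M21, and promoters came from RefSeq on GRCm38.p6, matched by symbol. Neither annotation is of the authors' build, so the coordinates given are those of the promoter windows on GRCm38.p6 and no others.
Alternatives were another pseudocount (0.1), no filter, median centring, rescaling without the 20 highest genes, no trend, other minimum fold changes, summed identifiers, the replicate number as a block and leaving out each library.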

Additional observations from a re-analysis of the deposited data

How the results depend on the processing

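Of the 20 listed genes that passed, 18 kept their direction and an adjusted p under 0.05 in all 13 alternatives and 0 reversed; this does not cover the DEG minimum. The exceptions were Idi1, whose adjusted p by limma was 0.0966 without the filter and 0.0591 without the trend, and Scap. Of the 14 that did not pass, 6 kept their direction and did not pass in any alternative. Reversals occurred in genes with log2 fold changes near 0. Lss ran from −0.029 to 0.160 with each library left out, below 0 without pLV-Control replicate 2 (−0.014) or 3 (−0.024) or pLV-SEMA6A replicate 2. Insig1 ran from −0.018 (without pLV-Control replicate 2) to 0.034. Insig2 was 0.031 when centred and ran from −0.150 to 0.019 (without pLV-SEMA6A replicate 3), with 0.011 without pLV-Control replicate 2. Stard4 was 0.055 when centred and ran from −0.162 to 0.043 (without pLV-SEMA6A replicate 2), with 0.004 without replicate 3. Elovl5 ran from −0.007 (without pLV-SEMA6A replicate 2) to 0.052.
The minimum fold change set the counts by construction. Without a minimum, 5959 genes passed, of which 19 listed genes were higher, and with a minimum of 1 there were 385 DEGs, with 0 listed genes higher and 0 lower. Without a minimum the related lists had 6 (SREBP processing), 16 (sterol uptake), 7 (isoprenoid), 9 (fatty acid supply), 17 (glycerolipid) and 8 (oxidation) called genes. With a minimum of 1 these were 0, 1, 0, 0, 0 and 0. A pseudocount of 0.1 and median centring each gave 2 DEGs in fatty acid supply and 2 in oxidation in place of 1. With centring, Slc27a4 of the supply list went from 0.469 to 0.562 and Cpt1a of the oxidation list from 0.464 to 0.557, over the DEG minimum. For the pseudocount the cause was not tested.
Leaving out each library in turn gave 1900 to 1975 DEGs, 6 to 9 higher and 1 to 1 lower DEGs among the listed genes (6 without pLV-Control replicate 1, where Acat2, Mvk and Cyp51 fell under the minimum and Sqle rose over it), 4 to 6 in sterol uptake, 3 to 5 in glycerolipid synthesis, 1 to 2 in the isoprenoid list (2 without pLV-SEMA6A replicate 1) and 1 to 2 in fatty acid supply (2 without pLV-Control replicate 1 or pLV-SEMA6A replicate 2).
Same-numbered libraries did not deviate together over all tested genes (correlations −0.02, −0.08 and −0.07). These correlations showed no pairing by number but cannot exclude it, because a pairing limited to some genes could be missed. With the replicate block there were 1924 DEGs, with 8 listed genes higher and 1 lower.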

Other observations

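Fads3, a relative of Fads1 and Fads2 that is not in the list, was picked after its values were seen. Its level was 116, 111 and 116 TPM in the controls against 185, 181 and 184 TPM, so the groups did not overlap (log2 fold change 0.68, standard error 0.03, adjusted p = 1.06e-05 by limma). It holds 0.73% of the 31-base stretches of Fads2, so shared sequence covers little of Fads2. Scd3, the desaturase that shares most sequence with Scd1, was at most 0.46 TPM in any library.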
